A study of Mus musculus with 8 samples.

Results

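CCL21-RANK+ thymic epithelial cells (TECs) of the mouse embryo at embryonic day 17 (E17) were compared with TECs of the same stage that were negative for both reporters (CCL21-RANK-, here called double-negative TECs). The comparison rests on the 3 libraries labelled as RANK positive and CCL21a negative and the 2 libraries labelled as negative for both, which are 5 of the 8 libraries of the series. It covers the 21451 genes that passed a filter on low counts, of 55450 genes in the table. The other 3 libraries hold CCL21+RANK- TECs, which shared the statistical fit and are mentioned only where their level helps to place a gene. All cells came from embryos in which tdTomato reports *Ccl21a* and Venus reports *Tnfrsf11a*, which encodes RANK, and were sorted as CD45-EpCAM+ cells before the reporter gates. The study gives these embryos as heterozygous for the *Ccl21a* reporter, and the zygosity of the Venus reporter is not given in the sources used here. No group was treated, and the labels do not give the litters. Both gates rest on reporter fluorescence, and the double-negative gate is defined only by its absence. RNA was sequenced in bulk, so more cells of a kind and more RNA per cell cannot be told apart. Total counts were 57286773, 50146758 and 42751858 for CCL21-RANK+ TECs against 67451448 and 71625319 for double-negative TECs. The noncoding genes *Gm26917* and *Gm42418*, which overlap ribosomal RNA, together held 18.8, 23.2 and 19.4% of these counts in CCL21-RANK+ replicates 1, 2 and 3, and 20.5 and 8.36% in double-negative replicates 1 and 2. Double-negative replicate 2 stood apart from the other 4 libraries in this share. The study calls its replicates biological, but the labels do not say whether they came from separate embryos or litters, and p-values measure only the spread between these libraries.

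RANK is a receptor of the tumour necrosis factor (TNF) family. After it binds its ligand RANKL, TRAF adaptors carry the signal to NF-kB, a group of transcription factors that inhibitor proteins of the IkB kind hold in the cytoplasm. In the thymus this signal is known for the development of medullary TECs (mTECs) that make AIRE and that transcribe genes of many other tissues, whose products are shown to developing T cells. Cortical TECs (cTECs) lie in the outer thymus, carry a proteasome of their own and present the peptides on which T cells are first selected.

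Of the genes behind the gates, *Tnfrsf11a* followed the labels and *Ccl21a* lay between the populations. *Tnfrsf11a* was at 111, 93.1 and 107 RPKM (counts per kilobase of exon, scaled to the total count of the library) in the CCL21-RANK+ libraries and at 2.62 and 2.26 RPKM in the double-negative libraries. The groups were far apart, and the log2 fold change was 5.28 ± 0.17 (SE, adjusted p = 1.23e-07, where this and all other adjusted p-values are those of the quasi-likelihood fit in edgeR). *Ccl21a* and its near-identical copies *Gm21541* and *Gm13304* share reads and are uncertain one by one, and the call of *Gm13304* was lost without double-negative replicate 1 (adjusted p = 0.101). Their summed level was 217, 108 and 99.8 CPM (counts scaled to the library total, without gene length) for CCL21-RANK+ TECs, 6.31 and 8.28 for double-negative TECs and 522, 327 and 281 for CCL21+RANK- TECs. The CCL21-RANK+ libraries thus lay above the double-negative and below the CCL21+RANK- libraries without overlap, and the reporter-negative gate did not mean an absence of these transcripts. *Epcam*, which encodes the adhesion molecule used in the sort, was at 156, 123 and 121 against 61.7 and 83.7 RPKM and was called higher (log2 fold change 0.76 ± 0.21, adjusted p = 0.0147), though not without double-negative replicate 1 (adjusted p = 0.125). *Ptprc*, which encodes CD45, was at 0.576, 0.177 and 0.421 against 0.0518 and 0.0351 RPKM, below 1 RPKM in every library. The TEC factor *Foxn1* was found in all libraries, at 54.5, 54.9 and 50.7 RPKM in CCL21-RANK+ and 82.2 and 85.4 RPKM in double-negative TECs, so both populations carried it. Of the cortical markers, *Psmb11*, *Prss16*, *Ly75* and *Cxcl12* were each above 90 RPKM in both double-negative libraries, while *Aire*, *Fezf2* and *Cd80*, genes of mature mTECs, were below 1 RPKM there. Other genes of medullary cells were present in double-negative TECs, with *Krt5* at 158 and 122 RPKM, *Spib* at 5.78 and 6.27 RPKM and *Cd40* at 3.84 and 5.05 RPKM.

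Between the populations, 3088 genes were higher and 3244 were lower in CCL21-RANK+ than in double-negative TECs when called at an adjusted p under 0.05, more than 1.5-fold apart, and with more than 1 RPKM on average in the higher group. These calls are 14.4% and 15.1% of the genes tested, and they are the background for every count below. Numbers in both directions were close, but sizes were not. The median fold among called genes was 7.34 for those higher and 2.21 for those lower, and the fold exceeded 16 in 1168 of the higher genes (37.8%) but in 49 of the lower genes (1.51%). Many of the higher genes started from near nothing. Their double-negative mean was under 0.1 RPKM in 912 cases (29.5%), and 153 had no count in either double-negative library, whereas the CCL21-RANK+ mean was under 0.1 RPKM for 15 of the lower genes. A fitted fold of a gene near 0 depends on the count the fit adds, so such folds give an order of size only. On the scaled counts behind the test, the libraries of the groups did not overlap in 68.8% of all genes tested. Across all genes tested the median log2 fold change was 0.06.

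**Figure D1:**
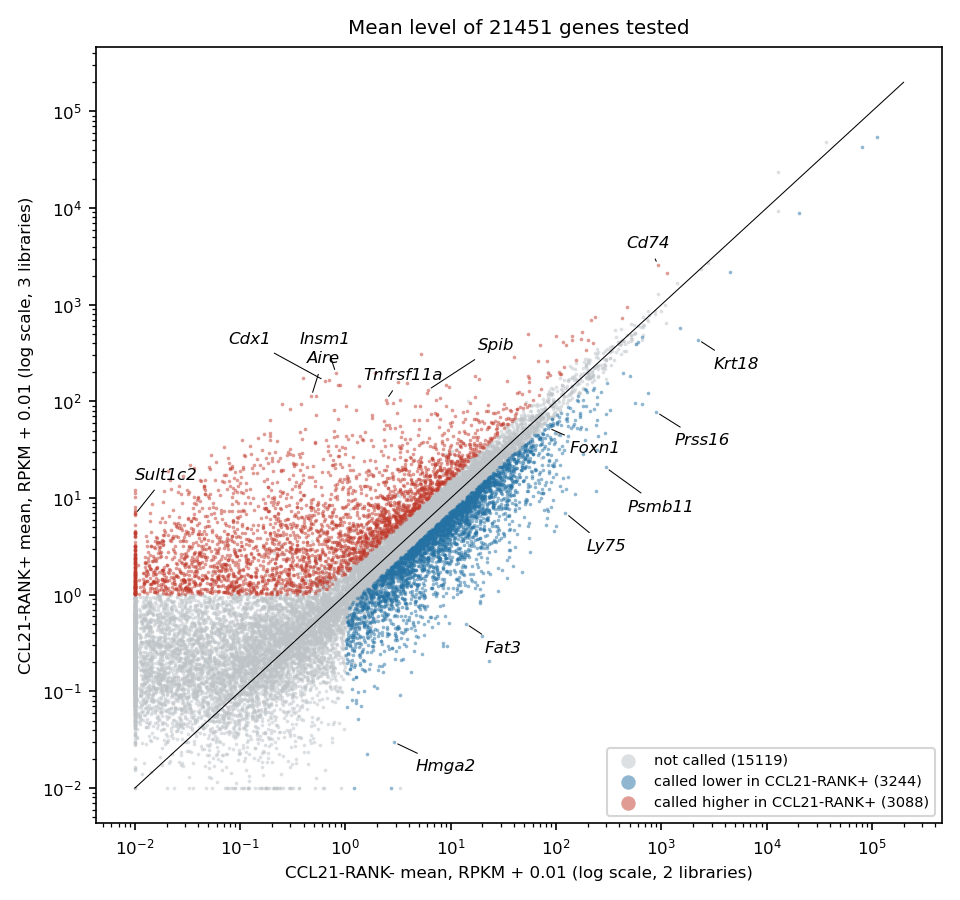
Mean level of each of the 21451 genes tested in double-negative TECs (x axis, 2 libraries) and in CCL21-RANK+ TECs (y axis, 3 libraries), both as RPKM + 0.01 on log scales, with the line of equal level and genes coloured by call. The 3088 genes called higher reach up to the left edge, where the double-negative mean is near 0, while the 3244 genes called lower mostly stay close to the line.

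Expression was also broader in CCL21-RANK+ TECs. With every library brought to 42751839 counts, the depth of the shallowest, 20563, 19134 and 19679 genes reached 10 counts in the CCL21-RANK+ libraries against 16394 and 16309 in the double-negative libraries. The lowest CCL21-RANK+ library thus lay above the highest double-negative library, with a mean difference of 3440.5 genes (19792.0 ± 721.2, SD, n = 3, against 16351.5 ± 60.1, SD, n = 2). The two-sided exact permutation test gave p = 0.1, the smallest that 3 against 2 libraries allow, so the design cannot reach 0.05. The size of the difference rests on the threshold: at more than 1 RPKM, 13267, 12206 and 12461 genes stood against 11290 and 11406, a mean difference of 1296.7 genes, again with no overlap. Among protein-coding genes with 10 counts the numbers were 17089, 15968 and 16274 against 13615 and 13678. With all gene types, the CCL21+RANK- libraries, at 16727, 16598 and 16679 genes with 10 counts, lay near the double-negative libraries. Replicate 1 had the highest number among the CCL21-RANK+ libraries. Markers of several other cell kinds were also higher in CCL21-RANK+ libraries, as given below. The part of such cells in the numbers of genes detected was not tested.

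**Figure D2:**
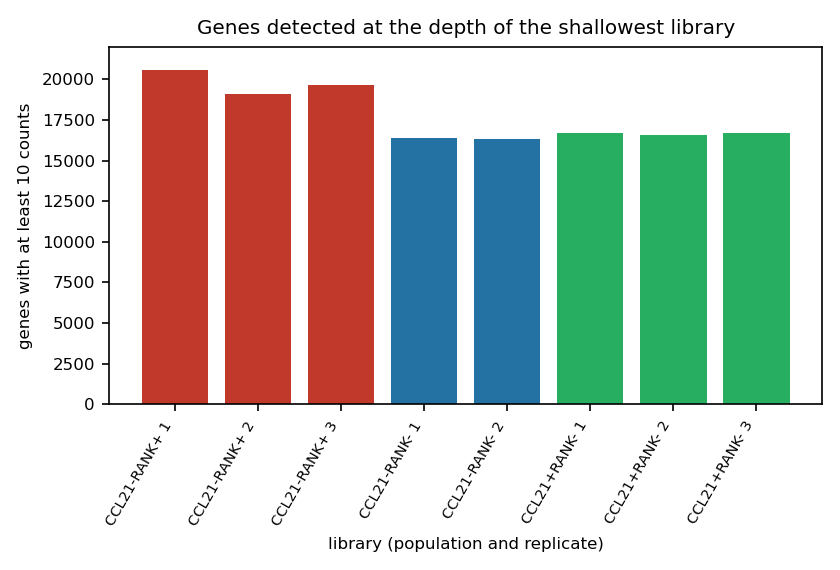
Number of genes with at least 10 counts (y axis) in each of the 8 libraries (x axis, by population and replicate) after all were brought to the depth of the shallowest library. The 3 CCL21-RANK+ bars, from 19134 to 20563 genes, stand above the bars of the other 2 populations.

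Among called genes with a mean of at least 5 CPM and no overlap between the groups, predicted genes left out, the largest increases included *Sult1c2*, *Pax5*, *Nkx2-6*, *Syndig1*, *Il23r*, *Tgm3*, *Pvalb*, *Rln3* and *Myh7b*, and none of them had a count in a double-negative library. They are known from different tissues. *Sult1c2*, a sulfotransferase, was at 9.34, 4.76 and 6.09 RPKM in CCL21-RANK+ TECs, with a mean at least 288-fold above the level of 3 counts per double-negative library. *Pax5*, the factor that commits cells to the B lineage, was at 1.48, 0.937 and 1.11 RPKM, with a mean at least 241-fold above that floor. The muscle calcium buffer *Pvalb* was at 14.04, 3.28 and 4.43 RPKM and the myosin gene *Myh7b* at 1.97, 0.207 and 0.987 RPKM, both highest in replicate 1. Without that library *Myh7b* stayed under 1 RPKM and was not called. By contrast *Syndig1*, a synapse protein, was even between libraries at 3.82, 3.17 and 2.84 RPKM. The relaxin family hormone *Rln3* was at 16.7, 6.67 and 10.6 RPKM and the epidermal transglutaminase *Tgm3* at 2.75, 1.24 and 1.62 RPKM.

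The largest decreases were of another kind, in genes that double-negative TECs expressed at moderate levels: *Hmga2*, *Zfp648*, *Adra2c*, *Fat3*, *Colgalt2*, *Tmem121b*, *Lgi2*, *Col8a2*, *Sox1ot* and *Spon2*. *Hmga2*, a chromatin protein of embryonic cells, was at 2.496 and 3.27 RPKM in the double-negative libraries and at 0.0335, 0.00883 and 0.0173 RPKM in CCL21-RANK+ TECs (log2 fold change -7.25 ± 0.44, adjusted p = 1.82e-06). The protocadherin-like gene *Fat3* was at 14.4 and 13.3 against 0.488, 0.562 and 0.431 RPKM, with little spread in either group (log2 fold change -4.93 ± 0.16). *Lgi2* was at 45.1 and 49.95 against 1.04, 2.84 and 1.26 RPKM and had the highest level of these 10 genes. All 10 were chosen among called genes whose groups did not overlap. Among the called genes of highest level, *Cd74*, *Actb*, *H2-Ab1*, *H2-Eb1* and *Krt17* were higher, and the small noncoding RNAs *Rn7s2*, *Rn7s1*, *Rn7sk* and *Rmrp* together with *Krt18* were lower in CCL21-RANK+ TECs. *Cd74*, the invariant chain of MHC class II, was at 3437, 1964 and 2313 against 817 and 1045 RPKM. The small RNAs were lower in every CCL21-RANK+ library on the scaled counts, but spread within groups, as *Rmrp*, annotated as overlapping entries of which only this was called, showed with 1195, 2316 and 3098 RPKM in CCL21-RANK+ and 3086 and 5924 RPKM in the double-negative libraries, where the RPKM ranges touched. *Rn7s1* and *Rn7s2* are near-identical copies that share reads. The calls of *Rn7s1*, *Rn7s2* and *Rmrp* were lost without double-negative replicate 2 (adjusted p = 0.166, 0.155 and 0.287) and without CCL21-RANK+ replicate 2. Those of *Rn7s1* and *Rn7s2* were also lost without CCL21-RANK+ replicate 1, and that of *Rmrp* with only the 5 libraries compared (log2 fold change -1.11, adjusted p = 0.0562). *Krt17* fell under the fold threshold without CCL21-RANK+ replicate 2 (log2 fold change 0.57).

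Gene lists written for TEC biology differed widely in their called shares, which the plot of shares by list shows. Of the tested members, 15 of 15 cortical TEC genes were lower, 19 of 22 sterol synthesis genes and 16 of 18 mature mTEC genes were higher, and no list of a peripheral tissue had more members lower than higher. These lists overlap in a few genes such as *Spib*, which stands in 3 of them, and they were chosen with results of these data known.

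**Figure D3:**
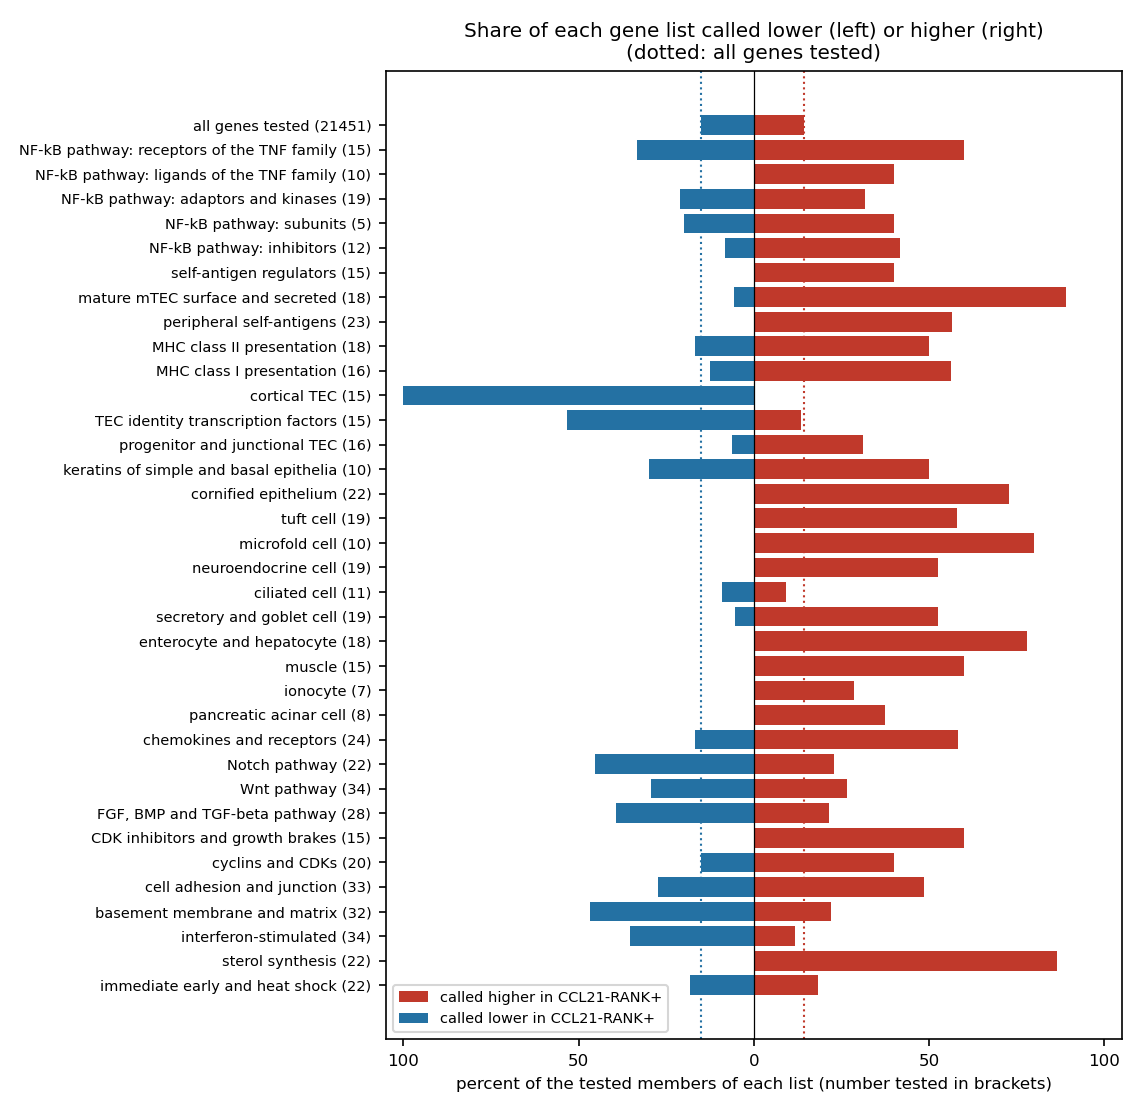
Share of the tested members of each gene list (number tested in brackets) that were called lower (bars to the left) or higher (bars to the right) in CCL21-RANK+ than in double-negative TECs, in percent. Dotted lines mark the 15.1% and 14.4% of all genes tested, and the cortical TEC bar runs to the left only while the mature mTEC, microfold, sterol and enterocyte bars run almost only to the right.

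Receptors of the TNF family were divided. Of 15 tested, 9 were higher and 5 lower, with *Tnfrsf11a*, whose reporter set the gates, among the higher. *Cd40*, another receptor that drives mTEC growth, was at 42.97, 23.7 and 30.99 RPKM in CCL21-RANK+ and 3.84 and 5.05 RPKM in double-negative TECs (log2 fold change 2.75 ± 0.23, adjusted p = 1.15e-05). *Tnfrsf11b*, which encodes osteoprotegerin, the soluble decoy that catches RANKL, was at 62.2, 37.97 and 37.7 against 0.216 and 0.0991 RPKM (log2 fold change 8.05 ± 0.39). The death receptor gene *Fas* was at 15.9, 10.5 and 13.1 against 0.324 and 0.379 RPKM. In the opposite direction went *Ltbr*, the lymphotoxin beta receptor, at 11.8, 12.3 and 10.4 against 31.4 and 41.1 RPKM (log2 fold change -1.77 ± 0.13, adjusted p = 4.74e-06), and *Tnfrsf1a*, the main TNF receptor, at 10.97, 12.4 and 11.5 against 35.1 and 45.7 RPKM (log2 fold change -1.90 ± 0.12). *Ngfr*, *Edar* and *Tnfrsf19* were also lower, *Edar* not without double-negative replicate 2 (adjusted p = 0.115).

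Ligands of this family were called only upwards, with 4 of 10 tested members higher. *Ltb*, which encodes the ligand of the receptor that was lower, was at 28.5, 20.5 and 19.8 against 0.254 and 0.0921 RPKM (log2 fold change 6.91 ± 0.43, adjusted p = 2.07e-06). *Lta*, its partner chain, was at 3.04, 0.7498 and 1.01 RPKM with no count in the double-negative libraries. Its mean was at least 51.3-fold above 3 counts per library, a bound that replicate 1 raised. Without that replicate the mean of *Lta* was under 1 RPKM. *Tnfsf9* and *Tnfsf10* were the other called genes, at means of 4.41 and 1.33 RPKM in CCL21-RANK+ TECs. The RANK ligand *Tnfsf11* stayed below 1 RPKM in every library, at 0.484, 0.428 and 0.565 against 0.0332 and 0.137 RPKM.

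Behind the receptors, genes of both NF-kB arms were called in both directions. *Nfkb2* and *Relb*, which form the p52 and RELB pair of the noncanonical arm, were both higher. *Nfkb2* was at 148, 113 and 119 against 50.4 and 59.4 RPKM (log2 fold change 1.08 ± 0.12). *Relb* was at 54.96, 51.8 and 50.6 against 26.3 and 28.9 RPKM (log2 fold change 0.81 ± 0.10), with little spread in either group. *Nfkb1*, the p50 subunit of the canonical arm, was lower, at 16.1, 13.5 and 12.49 against 28.3 and 34.8 RPKM (log2 fold change -1.28 ± 0.12, adjusted p = 2.19e-05), and *Rela* and *Rel* were not called. Among 19 adaptors and kinases, 6 were higher and 4 lower. *Traf6*, the adaptor RANK uses most, was at 18.2, 16.4 and 16.3 against 5.65 and 6.04 RPKM, and *Birc3*, a ubiquitin ligase of the receptor complex, at 66.2, 50.6 and 52.96 against 16.1 and 15.4 RPKM. *Traf3*, which holds the noncanonical kinase in check, was lower at 11.4, 10.4 and 8.99 against 14.2 and 16.9 RPKM (log2 fold change -0.72 ± 0.12), but just under the fold threshold with the size factors of DESeq2 (-0.58) and in DESeq2 itself. That kinase, *Map3k14* (NIK), was lower too, at 9.57, 5.002 and 6.12 against 10.1 and 12.7 RPKM, but not without double-negative replicate 2 (adjusted p = 0.0546). The inhibitors *Nfkbia*, *Nfkbie*, *Nfkbid*, *Tnip1* and *Tnip2* were higher and *Nfkbiz* lower, of 12 tested. The lower count was 2 with the replicate block or without CCL21-RANK+ replicate 1, and it also rose without double-negative replicate 1. *Nfkbia* had the highest level among these inhibitors, at 304, 222 and 261 against 74.5 and 90.4 RPKM (log2 fold change 1.55 ± 0.15, adjusted p = 2.16e-05). With the size factors of DESeq2 the median log2 fold change of all genes tested was 0.20 in place of 0.06, and *Nfkb2*, *Relb*, *Nfkb1* and *Nfkbia* kept their calls under that scaling and the upper-quartile one.

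**Figure D4:**
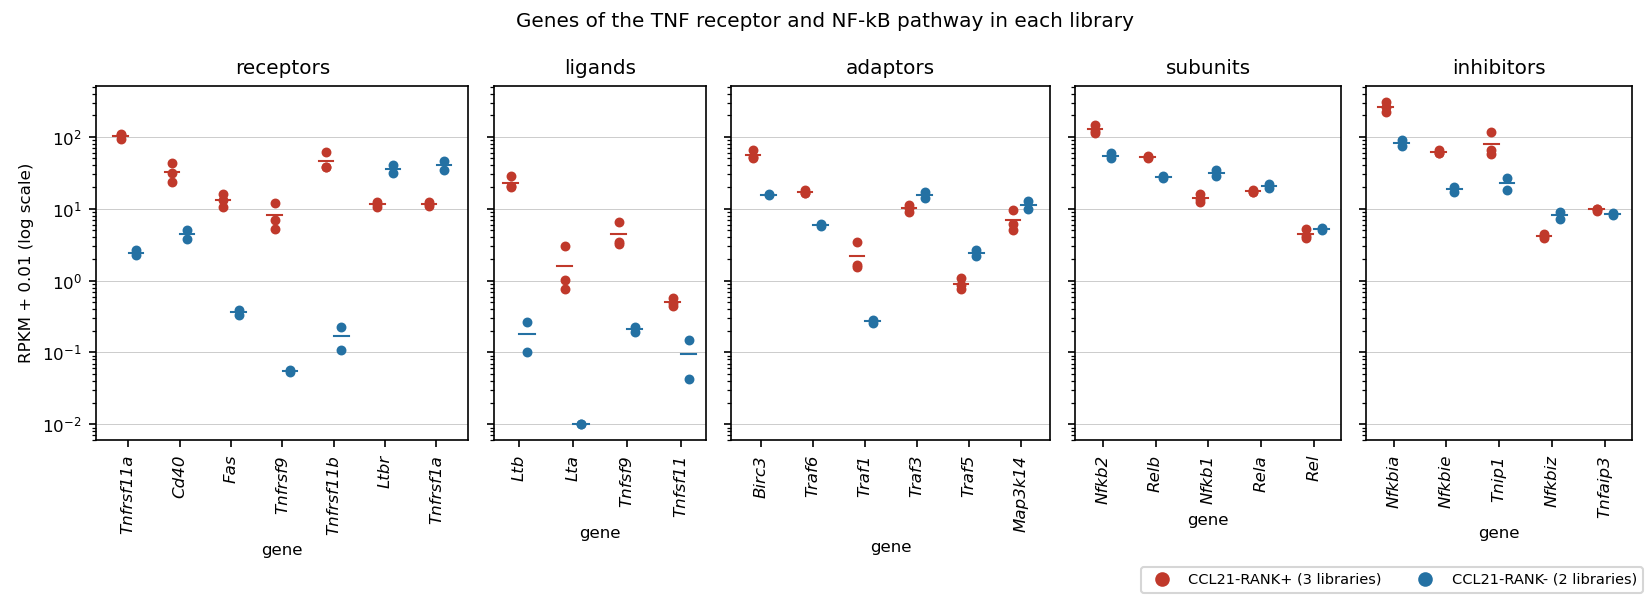
Level of genes of the TNF receptor and NF-kB pathway (x axis, by role) in each library, as RPKM + 0.01 on a log scale, with dots for libraries and a short line for the group mean. CCL21-RANK+ libraries lie above the double-negative libraries for *Tnfrsf11a*, *Ltb*, *Nfkb2* and *Nfkbia* and below them for *Ltbr*, *Tnfrsf1a*, *Traf3* and *Nfkb1*.

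Promoters of these genes were read for a form of the NF-kB site, GGG followed by any 2 bases and TTTCC, on both strands over 250 bases before and 50 after the start site (RefSeq, GRCm38.p6). A match is only a match of letters. Promoters were matched by symbol for 13999 of the genes tested. These letters stood in 2.88% of the 2254 promoters of higher genes, 1.37% of the 2476 of lower genes, 1.46% of those not called and 1.62% of all 27025 promoters. Higher genes of the pathway and mTEC lists that hold them were *Ccl20*, *Elf3*, *Ltb*, *Nfkb2*, *Nfkbia* and *Traf2*, while *Traf3* held them and was lower, and *Cyld*, *Map3k7*, *Rel* and *Tnfaip3* held them and were not called. Of these, *Cyld* was called higher with the size factors of DESeq2 (log2 fold change 0.67), with upper-quartile scaling, in DESeq2 itself and without double-negative replicate 1. The whole promoters of the subunit, the inhibitor, the ligand and the chemokine are shown because all were higher and carry the letters at different distances from the start, with the match or its reverse complement in capitals.
Nfkb2 (chr19:46304487-46304786, plus strand): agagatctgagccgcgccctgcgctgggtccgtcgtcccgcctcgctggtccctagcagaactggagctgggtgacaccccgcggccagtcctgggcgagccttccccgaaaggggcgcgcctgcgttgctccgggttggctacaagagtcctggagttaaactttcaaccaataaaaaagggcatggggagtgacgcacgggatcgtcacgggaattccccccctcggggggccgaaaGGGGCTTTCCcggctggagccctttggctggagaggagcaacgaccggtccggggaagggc
Nfkbia (chr12:55492598-55492897, minus strand): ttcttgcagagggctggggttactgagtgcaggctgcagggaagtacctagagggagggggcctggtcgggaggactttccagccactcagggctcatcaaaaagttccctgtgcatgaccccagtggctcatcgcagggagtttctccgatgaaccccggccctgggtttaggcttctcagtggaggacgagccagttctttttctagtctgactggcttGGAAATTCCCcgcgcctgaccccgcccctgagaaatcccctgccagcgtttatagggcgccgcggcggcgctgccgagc
Ltb (chr17:35194257-35194556, plus strand): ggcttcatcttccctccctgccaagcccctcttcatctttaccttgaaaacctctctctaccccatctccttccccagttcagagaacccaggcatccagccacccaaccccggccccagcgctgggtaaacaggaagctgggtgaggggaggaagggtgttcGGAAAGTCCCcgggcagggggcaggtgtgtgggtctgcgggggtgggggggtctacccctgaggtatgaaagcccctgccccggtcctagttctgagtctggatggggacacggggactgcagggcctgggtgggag
Ccl20 (chr1:83116516-83116815, plus strand): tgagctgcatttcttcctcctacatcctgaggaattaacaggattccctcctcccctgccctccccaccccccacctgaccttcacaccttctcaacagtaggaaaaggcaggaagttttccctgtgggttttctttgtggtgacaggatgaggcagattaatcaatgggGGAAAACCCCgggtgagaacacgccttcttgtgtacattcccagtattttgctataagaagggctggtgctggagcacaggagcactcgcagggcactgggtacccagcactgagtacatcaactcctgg
The match began 11 bases before the start site in *Nfkb2*, 29 before it in *Nfkbia*, 80 in *Ccl20* and 87 in *Ltb*. Stretches of at most 30 bases around the match, with the promoter they lie in, are given for other called genes, to set the lower gene *Traf3* beside the higher gene *Traf2*.
Traf2 (within chr2:25546891-25547190, minus strand): gcggcagcggGGGTGTTTCCcggcgagcg
Traf3 (within chr12:111166120-111166419, plus strand): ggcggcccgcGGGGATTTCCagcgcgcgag

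Among the regulators of self-antigen expression, *Aire* and *Fezf2* were nearly absent from double-negative TECs. *Aire* was at 131, 94.1 and 114 RPKM in CCL21-RANK+ TECs and at 0.8101 and 0.1205 RPKM in the double-negative libraries (log2 fold change 7.77 ± 0.71, adjusted p = 1.81e-05). *Fezf2*, the second factor known for such expression, was at 98.9, 70.7 and 82.2 against 0.5303 and 0.0458 RPKM (log2 fold change 8.04 ± 0.80). In all, 6 of 15 were higher and 0 lower (1 lower with the replicate block and without double-negative replicate 1 or CCL21-RANK+ replicate 1 or 3). The others called were *Irf4*, *Ehf*, *Elf3* and *Spib*, and *Spib* was at 146, 120.4 and 125 against 5.78 and 6.27 RPKM. *Prdm1* was at 1.02, 0.304 and 0.3899 against 0.00797 and 0.005005 RPKM and did not reach 1 RPKM on average.

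The factors *Insm1* and *Cdx1* of other cell lineages reached levels like that of *Aire*, but not all such factors did. In CCL21-RANK+ TECs *Myog* was at a mean of 38.4 RPKM and *Pax5* at a mean of 1.18 RPKM. *Insm1*, a factor of endocrine cells, was at 176, 194 and 213 against 1.37 and 0.239 RPKM (log2 fold change 7.77 ± 0.71), and *Cdx1*, a factor of the intestine, at 188, 144 and 159 against 1.12 and 0.136 RPKM (log2 fold change 7.88 ± 0.75). Neither varied more than 2-fold between CCL21-RANK+ libraries. In double-negative replicate 1, *Aire*, *Fezf2*, *Insm1* and *Cdx1* stood at 0.717%, 0.632%, 0.703% and 0.683% of their CCL21-RANK+ mean, and in replicate 2 at 0.107%, 0.0546%, 0.123% and 0.0829%. The 4 shares lay close together in replicate 1, were more spread in replicate 2, and were several times larger in replicate 1 for each gene. *Spib* differed from this, at 4.44% in replicate 1 and 4.81% in replicate 2. Whether CCL21-RANK+ cells in the double-negative gate contribute to these low levels was not tested.

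Surface and secreted genes of mature mTECs were higher in 16 of 18 cases, with a median log2 fold change of 5.28 (4.77 with genes absent from the double-negative libraries set to their lower bound). The costimulatory genes *Cd80*, at 12.6, 6.79 and 7.39 against 0.0641 and 0.0264 RPKM, and *Icosl*, at 57.7, 33.03 and 40.4 against 0.789 and 0.849 RPKM, were far apart between groups. *Cd86* was at 1.89, 0.534 and 0.594 RPKM with no count in the double-negative libraries. Its mean was at least 85.2-fold above 3 counts per library, a bound that replicate 1 raised. Without that replicate the mean of *Cd86* was under 1 RPKM. The chemokine genes *Ccl19*, *Ccl20* and *Ccl22* were higher, with *Ccl19* at 29.7, 8.45 and 14.3 against 0.303 and 0.316 RPKM and *Ccl22* at 17.7, 6.25 and 6.71 against 0.00638 and 0.05405 RPKM. The cytokine gene *Il15* was not called, at 2.803, 2.87 and 2.45 against 2.07 and 2.32 RPKM (log2 fold change 0.19 ± 0.28, adjusted p = 0.6104). The only lower gene was *Cd274*, which encodes the inhibitory ligand PD-L1 and was lower, at 15.6, 13.02 and 10.003 against 49.7 and 58.2 RPKM (log2 fold change -2.19 ± 0.17, adjusted p = 7.88e-06). Its relative *Pdcd1lg2* was higher, at 7.52, 4.06 and 4.04 against 2.62 and 2.39 RPKM, but not without double-negative replicate 2 (adjusted p = 0.123).

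Genes of peripheral tissues were present at lower and less even levels. Of 23 tested peripheral self-antigen genes (35 listed, of which 34 were in the table and 11 of these were filtered out for low counts), 13 were higher and 0 lower, and 9 of those tested had no count in a double-negative library. Their median log2 fold change was 7.38, or 4.86 with the genes at 0 set to their bound. The milk protein gene *Csn2* was at 29.3, 10.3 and 12.2 against 0.0963 and 0.0302 RPKM (log2 fold change 7.94 ± 0.69). *Tff3*, a mucosal trefoil factor, was at 28.6, 3.72 and 4.22 RPKM, with a mean at least 139-fold above the floor. The hormone gene *Sst* was at 15.8, 3.43 and 4.87 RPKM, with a mean at least 134-fold above it. Replicate 1 raised both means, so replicates 2 and 3 alone lie nearer the floor than these bounds. The insulin gene *Ins2* was read in 2 CCL21-RANK+ libraries only, at 0.931, 0.152 and 0 RPKM, and was not called. In every one of the 13 higher genes CCL21-RANK+ replicate 1 had the highest level, and without that library 7 were called of the 17 then tested.

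Cell type programmes described in mature mTECs differed in how many genes they involved. For tuft cells, the chemosensory cells of mucosa, 11 of 19 tested genes were higher, among them *Trpm5* at 6.74, 3.03 and 2.73 against 0.292 and 0.3797 RPKM and *Gnat3* at 12.2, 4.67 and 1.79 against 0.392 and 0.297 RPKM. The tuft cell master factor *Pou2f3* was not called, at 3.67, 2.93 and 2.94 against 3.21 and 4.83 RPKM, and without double-negative replicate 1 it was called lower (log2 fold change -0.66, adjusted p = 0.024). Microfold cells, which sample gut contents, gave 8 of 10, with *Gp2* at 17.2, 9.35 and 8.16 against 0.349 and 0.377 RPKM. Neuroendocrine genes gave 10 of 19, led by *Insm1* and including the peptide gene *Calca* at 28.2, 7.61 and 7.46 against 0.132 and 0.249 RPKM, while *Chga* was not called. Cornified epithelium gave 16 of 22, with *Krt16* at 22.7, 9.04 and 12.96 against 0.525 and 0.491 RPKM, and without double-negative replicate 1 this count was 10. Enterocyte and hepatocyte genes gave 14 of 18, and *Reg3g*, an antimicrobial lectin, was at 48.9, 12.8 and 15.2 against 0.1403 and 5.601 RPKM, uneven between the double-negative libraries and not called without CCL21-RANK+ replicate 1 (adjusted p = 0.0937) or with only the 5 libraries compared (adjusted p = 0.0658).

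Muscle genes gave 9 of 15, with the factor *Myog* at 65.5, 22.8 and 26.96 against 0.625 and 0.392 RPKM and the enzyme *Ckm* at 27.9, 1.28 and 3.72 RPKM in CCL21-RANK+ TECs, where replicate 1 lay far above. Without double-negative replicate 1 *Ckm* was not called (adjusted p = 0.0728) and the count was 5. Secretory and goblet cell genes gave 10 of 19 higher and 1 lower, the airway gene *Bpifa1* at 41.5, 31.5 and 30.2 against 104 and 123 RPKM. In that list the airway mucin *Muc5b* and the goblet cell gene *Agr2* were highest in double-negative replicate 2. *Muc5b* was at 3.94, 0.0573 and 1.11 against 1.51 and 6.74 RPKM and *Agr2* at 1.26, 0.0927 and 1.01 against 1.13 and 6.61 RPKM, and neither was called. Without double-negative replicate 1 *Agr2* was called lower (log2 fold change -3.15, adjusted p = 0.0389), as it was with no expression filter (adjusted p = 0.0172). Ciliated cells were the exception, with 1 gene higher and 1 lower of 11, and *Foxj1* at 20.8, 7.64 and 5.18 against 3.79 and 7.64 RPKM. Ionocyte and pancreatic acinar genes gave 2 of 7 and 3 of 8 higher, and both counts rested on single libraries. The ionocyte count was 0 without double-negative replicate 2 and 1 without double-negative replicate 1 or CCL21-RANK+ replicate 1 or 3. The acinar count was 1 without CCL21-RANK+ replicate 1 or without either double-negative library.

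CCL21-RANK+ replicate 1 stood above its 2 sister libraries in these programmes but not in all genes. It was the highest of the 3 in 49.3% of all genes tested and in 77.4% of the genes called higher. Among the called members, its level was 3.81 times the mean of replicates 2 and 3 at the median of the peripheral self-antigens, 3.94 times in the secretory, 3.33 times in the muscle and 2.6 times in the tuft cell list. The same ratio was 1.28 in the self-antigen regulators, 1.17 in sterol synthesis and 1.4 over all genes called higher. Without this library 2749 genes were called higher and 3071 lower.

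**Figure D5:**
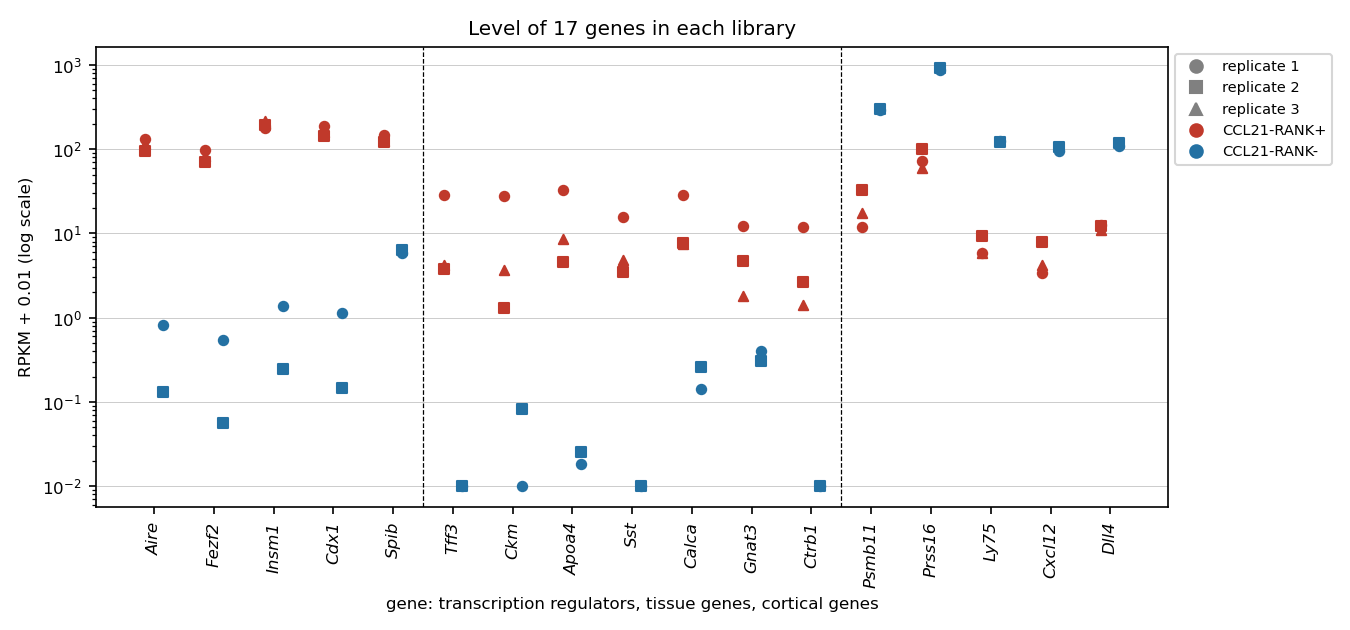
Level of 17 genes in each library (y axis, RPKM + 0.01 on a log scale), in 3 blocks of transcription regulators, tissue genes and cortical genes, with the marker giving the replicate and the colour the population. The CCL21-RANK+ libraries lie close together for *Aire*, *Insm1* and *Cdx1* but replicate 1 lies apart for *Tff3*, *Ckm* and *Calca*, and the cortical genes are reversed, with the double-negative libraries on top.

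Cortical TEC genes were lower without exception among those tested, at a median log2 fold change of -2.88. *Psmb11*, the catalytic subunit of the thymoproteasome, was at 11.9, 32.7 and 17.5 RPKM in CCL21-RANK+ TECs and at 293 and 299 RPKM in the double-negative libraries (log2 fold change -3.93 ± 0.40, adjusted p = 3.45e-05). *Prss16*, a cortical serine protease, was at 72.9, 101 and 59.97 against 865 and 920.0 RPKM, and the cathepsin gene *Ctsl* at 109.7, 159 and 100.2 against 707 and 800.1 RPKM. *Ly75*, which encodes CD205, was at 5.797, 9.37 and 5.84 against 125 and 121 RPKM (log2 fold change -4.24 ± 0.24). Signals to immature T cells moved with them. The Notch ligand *Dll4* was at 12.4, 12.3 and 11.1 against 110.0 and 119 RPKM, the chemokine *Cxcl12* at 3.42, 7.87 and 4.25 against 94.99 and 106 RPKM, and *Il7*, *Kitl* and *Ccl25* were lower too. Levels did not reach 0 in CCL21-RANK+ TECs. Replicates 1, 2 and 3 held 4.03, 11.05 and 5.92% of the double-negative mean of *Psmb11*, 8.16, 11.3 and 6.72% of *Prss16* and 10.8, 10.8 and 9.67% of *Dll4*. CCL21+RANK- TECs had 267 RPKM of *Psmb11* and 982 RPKM of *Prss16* on average, close to the double-negative level.

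Identity factors of the TEC lineage were lower in 8 of 15 cases and higher in 2 (1 without double-negative replicate 2). *Pax1* was at 34.1, 61.5 and 47.04 against 282 and 302 RPKM and *Trp63*, the factor of stratified epithelia, at 13.7, 26.2 and 18.5 against 64.2 and 65.7 RPKM, while *Eya1* was not called. The change of *Foxn1* was small beside these (log2 fold change -0.77 ± 0.12, adjusted p = 4.55e-04). Keratin pairs went in opposite directions. Of the pair of simple epithelia, *Krt8* was at 609.6, 578 and 532 against 1443 and 1569.7 RPKM and *Krt18* at 435, 480.4 and 394 against 2161 and 2300.2 RPKM, both lower. Of the basal pair, *Krt5* was at 375, 561 and 368 against 158 and 122 RPKM and *Krt14* at 82.4, 68.1 and 47.3 against 8.03 and 7.74 RPKM, both higher. *Krt20*, a keratin of intestinal cells, was at 30.2, 12.6 and 12.7 against 0.131 and 0.02898 RPKM. Of the progenitor and junctional TEC genes 5 of 16 were higher, with the claudins *Cldn3* at 55.6, 25.1 and 38.4 against 1.59 and 3.02 RPKM and *Cldn4* at 53.9, 21.02 and 27.7 against 1.61 and 2.04 RPKM, and *Pdpn* was lower. Without double-negative replicate 2 this count was 8.

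Genes of antigen presentation were higher in part. In the MHC class II list 9 of 18 genes were higher and 3 lower. The class II chain *H2-Aa* was at 632, 454 and 492 against 167 and 183 RPKM (log2 fold change 1.46 ± 0.15), and *Ctss*, the cathepsin that trims the invariant chain in medullary and dendritic cells, at 95.5, 47.8 and 56.3 against 0.884 and 0.802 RPKM (log2 fold change 6.16 ± 0.35, adjusted p = 1.30e-06). The peptide editor genes split, as *H2-DMb2* was at 237, 141 and 176 against 15.4 and 18.3 RPKM while *H2-DMb1* and *H2-DMa* were not called. *Ciita*, the master factor of class II genes, was not called either, at 23.3, 15.4 and 17.7 against 11.6 and 15.1 RPKM. In the class I list 9 of 16 were higher and 2 lower. *H2-K1* was at 568, 313 and 347 against 107 and 126 RPKM and *B2m* at 605, 412 and 411 against 137 and 146 RPKM. The immunoproteasome did not move as one, since *Psmb8* was higher at 19.1, 12.3 and 16.2 against 1.02 and 1.01 RPKM, *Psmb9* was lower at 10.9, 11.4 and 9.36 against 34.4 and 38.7 RPKM, and *Psmb10* was lower at 102, 119.5 and 110.5 against 225 and 262 RPKM. Class I and class II chains resemble each other, so reads can be split between them and single values are uncertain.

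Among 24 chemokine and receptor genes, 14 were higher and 4 lower. The receptor gene *Cxcr4* was at 12.04, 12.4 and 14.8 against 0.902 and 1.297 RPKM and *Ccr7*, the receptor for CCL19 and CCL21, at 10.5, 3.93 and 5.995 against 0.0525 and 0 RPKM. The interferon-induced chemokine *Cxcl9* was at 21.9, 7.44 and 8.601 against 0.0541 and 0.0972 RPKM. *Ackr4*, a scavenger of CCL21 and CCL25, was lower, at 1.53, 3.14 and 2.21 against 28.9 and 39.7 RPKM. Interferon-stimulated genes as a list went the other way from the chemokines, with 12 of 34 lower, *Irf1*, *Irf9* and *Isg15* among them, and 4 higher. *Isg15* was at 25.8, 22.7 and 18.1 against 55.8 and 90.1 RPKM. *Ifngr2*, a chain of the interferon gamma receptor, was one of the higher genes, at 40.03, 37.8 and 39.5 against 11.2 and 12.99 RPKM.

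Signalling genes of embryonic epithelia showed changes both ways. In the Notch list 10 of 22 genes were lower and 5 higher. The ligands *Dll1*, *Dll4*, *Jag1* and *Jag2* were all lower, with *Jag2* at 16.5, 20.5 and 16.8 against 92.9 and 109 RPKM, whereas *Dll3*, which blocks signalling inside the cell, was higher at 5.84, 3.76 and 6.06 against 0.13 and 0.176 RPKM. The target *Hey1* was at 9.19, 14.7 and 10.2 against 75.2 and 75.8 RPKM and *Hes1* was lower as well. Wnt genes gave 9 higher and 10 lower of 34. The ligands *Wnt10a*, at 31.2, 20.5 and 28.4 against 0.318 and 0.396 RPKM, and *Wnt10b*, at 33.9, 39.3 and 45.5 against 1.73 and 1.17 RPKM, were higher, *Wnt4* was lower at 11.3, 7.94 and 7.06 against 27.4 and 41.6 RPKM, and the target *Axin2* was lower (log2 fold change -0.66 ± 0.14, adjusted p = 0.00352), but under the fold threshold with the size factors of DESeq2 (-0.52), upper-quartile scaling and in DESeq2 itself. For the FGF, BMP and TGF-beta genes, 11 of 28 were lower and 6 higher. *Fgfr2*, the receptor through which mesenchyme supports TEC growth, was at 6.0, 10.5 and 7.18 against 41.2 and 47.7 RPKM. *Fgf21* was at 241, 103 and 134 against 2.73 and 3.61 RPKM (log2 fold change 5.52 ± 0.36), *Bmp2* at 22.3, 23.3 and 20.1 against 1.001 and 1.12 RPKM and the BMP antagonist *Grem1* at 11.4, 12.7 and 12.3 against 0.0786 and 0.0236 RPKM. *Tgfbr2* was lower, at 1.13, 2.01 and 1.73 against 15.7 and 17.04 RPKM.

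Growth control genes were called higher more often than lower. In the list of CDK inhibitors and growth brakes 9 of 15 were higher and 0 lower. *Cdkn2b* was at 21.8, 14.03 and 13.5 against 0.395 and 0.492 RPKM and *Cdkn2a* at 11.7, 5.41 and 9.28 against 0.0379 and 0.131 RPKM. *Cdkn1c* had the highest level of them, at 314, 84.1 and 122 against 49.3 and 61.96 RPKM, with replicate 1 far above the others, and was not called without either double-negative library (adjusted p = 0.115 and 0.0851). Without double-negative replicate 1 the count was 4. Of 20 cyclins, CDKs and related factors 8 were higher and 3 lower, or 4 higher without double-negative replicate 1. Of the G1 cyclins, *Ccnd1* was higher at 14.99, 10.3 and 11.1 against 0.885 and 1.48 RPKM, *Ccnd2* was higher at 121, 128 and 113 against 45.02 and 49.7 RPKM, and *Ccnd3* was lower at 5.02, 4.504 and 4.5 against 9.6 and 10.2 RPKM. The mitotic cyclins *Ccna2*, *Ccnb1* and *Ccnb2* and the proliferation marker *Mki67* were not called. *Mki67* was at 18.7, 9.41 and 9.58 against 4.17 and 11.4 RPKM and was uneven between the double-negative libraries. It was called higher without double-negative replicate 2 (log2 fold change 1.38, adjusted p = 0.0376), and *Ccna2* was called higher by DESeq2 (adjusted p = 0.0257) and without CCL21-RANK+ replicate 1 (adjusted p = 0.00211).

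Sterol synthesis genes were higher nearly throughout, with 19 of 22 genes higher, 0 lower and a median log2 fold change of 1.77. *Idi1*, an isomerase of an early step, was at 45.1, 37.3 and 40.5 against 4.15 and 4.09 RPKM (log2 fold change 3.19 ± 0.17, adjusted p = 9.79e-07), and *Sqle*, which oxidizes squalene, at 38.1, 33.7 and 35.9 against 20.8 and 20.7 RPKM (log2 fold change 0.67 ± 0.12). The groups did not overlap in either gene. *Sc5d*, *Mvk* and the factor *Srebf2* were the members not called. Immediate early and heat shock genes, which respond to handling, gave 4 higher and 4 lower of 22, and the lower count was 0 without double-negative replicate 2 or CCL21-RANK+ replicate 3. With CCL21-RANK+ replicate 2 left out it was 1. *Fos* was at 64.9, 91.4 and 40.1 against 69.7 and 95.6 RPKM with overlapping groups.

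Genes of cell contacts went both ways. In the adhesion and junction list 16 of 33 genes were higher and 9 lower. Tight junction genes *Cldn7*, at 55.1, 33.8 and 46.5 against 1.06 and 1.25 RPKM, and *Tjp3*, at 32.5, 22.3 and 26.6 against 0.766 and 0.917 RPKM, and the gap junction gene *Gjb2*, at 33.3, 17.6 and 21.9 against 0.2896 and 0.151 RPKM, were higher. Desmosome genes *Dsp*, *Dsc2*, *Dsc3* and *Jup* were lower, with *Dsc3* at 3.07, 3.15 and 2.1 against 53.2 and 59.01 RPKM, and so was P-cadherin (*Cdh3*) at 8.44, 10.97 and 8.24 against 44.1 and 58.5 RPKM, while E-cadherin (*Cdh1*) was not called at 141, 121 and 127 against 122 and 161 RPKM. Of the basement membrane and matrix genes 15 of 32 were lower and 7 higher (4 without replicate 1 of either population). Fibronectin (*Fn1*) was at 36.1, 54.8 and 39.2 against 238 and 258 RPKM, the laminin gene *Lama5* at 4.34, 4.26 and 4.25 against 31.6 and 32.02 RPKM (log2 fold change -3.01 ± 0.12) and the integrin gene *Itgb8* went up, at 6.75, 4.42 and 6.16 against 0.0509 and 0.0278 RPKM.

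Markers of other cells that a gate could hold were higher in CCL21-RANK+ libraries for several kinds. The sort took CD45-EpCAM+ cells, and how many cells that carry CD45 or lack EpCAM remained was not tested here. For thymocytes, 5 of 12 tested markers were higher, the summed level was 23.96, 10.2 and 19.6 RPKM against 3.98 and 3.53 RPKM, *Rag1* was the most abundant (not called without double-negative replicate 2, adjusted p = 0.0676), and *Cd3e* was at 0.757, 0.313 and 0.745 against 0.1199 and 0.06502 RPKM. Without double-negative replicate 2 the count was 2. For B cells, 3 of 6 were higher with a summed level of 36.2, 21.6 and 33.5 against 0.632 and 0.503 RPKM, mostly *Igkc*. *Ms4a1* (CD20) was at 0.243, 0.0419 and 0.0681 RPKM in CCL21-RANK+ TECs, with no count in the double-negative libraries. It was not called, as its mean was under 1 RPKM. For myeloid and dendritic cells, 4 of 8 were higher (2 without CCL21-RANK+ replicate 1), with summed levels of 62.1, 19.5 and 22.2 against 0.483 and 0.382 RPKM, mostly *Lyz2*. *Itgax* was at 0.182, 0.05896 and 0.00974 against 0.00309 and 0 RPKM, higher in every CCL21-RANK+ library but under 1 RPKM and so not called. The marker sums of these 3 lineages were thus higher in every CCL21-RANK+ library than in either double-negative library.

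Mesenchyme markers gave 6 of 8 higher, with summed levels of 62.8, 31.9 and 38.05 against 4.58 and 2.35 RPKM, led by *Col1a1*, and *Pdgfra* was near 0 at 0.122, 0.0517 and 0.0303 against 0.0385 and 0.0376 RPKM. Glial markers gave 3 of 4 (1 without CCL21-RANK+ replicate 1 or without double-negative replicate 2), with summed levels of 7.33, 2.27 and 4.94 against 0.418 and 0.313 RPKM, and *Foxd3* was at 1.85, 0.472 and 0.956 against 0.0128 and 0 RPKM and was not called without either of those libraries. Endothelial markers gave 1 higher (0 without CCL21-RANK+ replicate 1) and 1 lower of 5, summed to 5.24, 3.28 and 2.84 against 4.94 and 5.46 RPKM with *Cd34* most abundant, and *Emcn* was at 0.04195, 0.00737 and 0 against 0 and 0.00258 RPKM. Erythroid markers, all globins at the top, gave no call in edgeR (1 higher in DESeq2 and 1 without double-negative replicate 1) and were uneven within the double-negative group, summed to 190.3, 286 and 301 against 453 and 57.1 RPKM. Parathyroid markers gave 1 higher (*Casr*) and 1 lower (*Pth*), summed to 24.9, 11.1 and 12.01 against 23.8 and 21.6 RPKM, while the CCL21+RANK- libraries held 7122, 1750.0 and 1955 RPKM. Cells of other kinds and transcription of their genes by CCL21-RANK+ TECs cannot be told apart here, and the part of these cells in the tissue gene counts above was not tested.

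Promoters of genes that started near 0 were of another composition than the rest. Counted over the same 300 bases, the promoters of higher genes with a double-negative mean under 0.1 RPKM held a median of 5 CG pairs (648 promoters), and 19.9% held the letters TATAAA on either strand. Higher genes with a double-negative mean of 1 RPKM or more held 21 CG pairs and TATAAA in 7.28% of 948 promoters. Genes that were tested and not called differed by level in the same way, with 6 CG pairs and 14.7% below 0.1 RPKM and 22 CG pairs and 6.18% at 1 RPKM or more, so the difference went with the level in double-negative TECs in both groups. TATAAA stood in 14.2% of all promoters. The promoter of *Aire* itself held 16 CG pairs and TATAAA, shown in capitals, 29 bases before the start site.
Aire (chr10:78043561-78043860, minus strand): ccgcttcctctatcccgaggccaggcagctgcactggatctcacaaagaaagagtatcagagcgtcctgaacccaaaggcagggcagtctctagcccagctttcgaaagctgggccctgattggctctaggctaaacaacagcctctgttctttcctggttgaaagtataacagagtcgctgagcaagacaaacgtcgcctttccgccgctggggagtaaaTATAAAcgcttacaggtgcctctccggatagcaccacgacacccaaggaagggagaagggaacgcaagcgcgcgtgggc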

How the data were processed

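TECs sorted from E17 embryos were sequenced as bulk RNA. The submitters' processing notes name bcl2fastq 2.20, Trimmomatic, STAR 2.5.1, RSEM 1.3.1 and the mm10 genome. The deposited table holds RSEM expected counts that the authors estimated per gene, not normalized, for 8 libraries and 55450 genes, and all identifiers matched GENCODE M21 (GRCm38). RSEM divides reads among near-identical genes by estimate, so copies such as *Ccl21a* are less certain than single genes. The notes and the study's methods name different library kits, both of which keep strand.

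Expected counts were rounded and fitted with edgeR 4.0.16 (R 4.3.3) by quasi-likelihood over all 3 populations, with TMM scaling, the default expression filter with a minimum count of 10 and Benjamini-Hochberg adjustment. RPKM used the library total and the union exon length. A gene was called at an adjusted p under 0.05, over 1.5-fold, and over 1 RPKM on average where it was higher. In simulated counts, 83.5% of 200 genes changed 4-fold were recovered among 21451 genes, with 9 other calls. The changed genes were drawn from well-counted ones, every gene had the same spread and no RPKM threshold was applied. The recovered share therefore does not describe genes of low count. Numbers of genes were compared by an exact permutation test. Libraries of 1 group differed by far more than counting noise, so they were not re-reads of 1 library and each counted as 1 replicate. This does not show whether they came from separate embryos.

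Named genes were the gate genes, the 10 largest changes and the 5 highest levels per direction, and members of 43 lists whose role is described. Some of the genes and sequences so chosen are not reported here. Members and lists were chosen with earlier results of these data known. Alternatives were other scalings and filters, DESeq2 1.42.0, stricter calls, a replicate block and leaving out each library.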

Additional observations from a re-analysis of the deposited data

How the results depend on the processing

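Most calls held. Of 166 named genes called, 147 kept their call at the same thresholds under every other scaling, filter and choice of libraries tried, the replicate block and DESeq2, and 19 lost it under at least 1. Genes called higher numbered between 2540 and 3210 when single libraries were left out, and genes called lower between 2754 and 3336. Leaving out a double-negative library leaves a lone sample that is assumed to vary like the other groups. Only 2 thresholds moved a number of calls by more than 1.5 times: an adjusted p under 0.05 alone gave 5793 genes higher and 4708 lower, and an adjusted p under 0.01 with a fold over 2 gave 2274 higher and 1780 lower. Scaling by DESeq2 size factors gave 3415 higher and 2637 lower, DESeq2 itself 3496 and 2698, and leaving out *Gm26917* and *Gm42418* 3409 and 3131. Of the 3088 main higher calls, 3086 were also made with DESeq2 size factors and 2589 without CCL21-RANK+ replicate 1. For the 3244 main lower calls these numbers were 2637 and 2924. The excess of genes detected in CCL21-RANK+ libraries lay between 3055 and 3769.5 genes without single libraries, and was 1296.7 genes at more than 1 RPKM. Among named genes that were not called, the log2 fold change turned sign when a library was left out for *Tnfaip3* (-0.01 to 0.21), *Gm26917* (-0.29 to 1.18) and *Map3k7* (-0.09 to 0.14). The cause was not tested. Of 1204 counts of called list members under the alternatives, 59 moved by more than 1.5 times.

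Whether replicate numbers pair the libraries was not settled. Same-numbered libraries of the 2 groups deviated with correlations of -0.052 and -0.041. The deviations of the 2 double-negative libraries mirror each other, so these correlations can tell little about pairing. With the replicate block 3046 genes were higher and 3278 lower, *Reg3g* lost its call (adjusted p = 0.0507), and the uncalled *Ccnb1* turned sign (-0.01).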
